A study of Mus musculus with 2 samples.

Results

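The immediate early genes described here are 10 genes (Fos, Fosb, Jun, Junb, Jund, Egr1, Ier2, Klf4, Klf6 and Btg2) of the 31053 gene names measured in the oligodendrocyte lineage of injured and uninjured mouse optic nerves. They were chosen by name and by no threshold on a measured value, though with earlier results of these data known, and each of the 10 had a row in both deposited tables. Single cell RNA-seq (scRNA-seq) gave 2 libraries, 1 for each condition, so no difference between the conditions has a replicate check. Both were made from Wildtype 129S1/SvlmJ mice of 10 weeks, male and female pooled, with 5 optic nerves in each. The injured library was made from the injury site 2 weeks after optic nerve crush (ONC), which was performed at 8 weeks, and the uninjured library from nerves without ONC. The labels give the time after crush, and an age of P56, for both samples, so the uninjured one was identified by its title. The tissue was dissociated to cell suspensions and 6000 cells per sample were loaded.

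The authors typed each cell barcode as oligodendrocyte precursor cell (OPC), newly formed oligodendrocyte (NFO) or oligodendrocyte. The uninjured library held 58 OPC, 44 NFO and 857 oligodendrocyte barcodes, and the injured library 17, 100 and 293. Median depth differed between the libraries, with 3060 UMIs (unique molecular identifiers, which count captured mRNA molecules) per uninjured and 1268 per injured oligodendrocyte barcode. It was 2290 and 4120 UMIs in OPCs, and 1259.5 and 1258.5 UMIs in NFOs. No barcode sequence was shared by both libraries. Marker genes fitted the types: 6 OPC markers summed to 8784 counts per 1000000 UMIs (CPM) in uninjured OPCs and to 18.1 in uninjured oligodendrocytes, and 8 markers of mature oligodendrocytes to 5346 and 74600. In the uninjured NFOs the OPC markers (4281 CPM) summed to more than 6 NFO markers did (3771 CPM), so the NFO label was less clear there than in the injured NFOs (2572 and 6727 CPM). Macrophage and microglia markers (16 genes) went from 35.0 to 298 CPM in OPCs, from 21.2 to 873 in NFOs and from 30.4 to 393 in oligodendrocytes after ONC.

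Immediate early genes are switched on within minutes of a stimulus, without the need for newly made protein, when kinases activate transcription factors that already sit at their promoters. Most encode transcription factors, and Fos and Jun proteins pair to form AP-1, which binds DNA and drives later genes. Growth factors, neuronal activity and injury induce them, and so does the enzymatic dissociation of a tissue to single cells.

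Their positions in GENCODE vM21 (GRCm38) show short genes. Fos (ENSMUSG00000021250) spans 3384 bases of chromosome 12 (85473890 to 85477273, plus strand) and Jun (ENSMUSG00000052684) has 1 exon, on chromosome 4 (95049034 to 95052222, minus strand). Jund and Ier2 are also annotated with 1 exon. The gene Prdx2 overlaps Junb on the opposite strand, and antisense genes overlap Jun (Junos) and Jund (Gm11175). Whether strand was used in the counting is not given in the sources used here, so a share of the Jun, Junb and Jund UMIs could belong to these partners.

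RefSeq promoter sequence (GRCm38.p6) was at hand for 8 of the 10 genes, not for Egr1 and Ier2. The letters of 7 short motifs and the CArG box, a site of serum response factor, were searched on both strands of the 250 bases before each start. For Jund the RefSeq start lies before the GENCODE start of the gene, so its window is not next to the annotated gene, and it held none of the 8 motifs. TGACGT, the half-site of the cAMP response element, was in 2 of the 8 promoters against 6.47% of 32851 promoters, and the whole element TGACGTCA, which holds the half-site, in 1 against 1.55%. The Jun-type variant TGACATCA was in 2 of 8 (2.93% of all promoters). The AP-1 site TGACTCA (4.46%), the Egr site GCGTGGGCG (0.536%) and the CArG box (1.47%) were in 0 of the 8 windows, while the GC box CCGCCC was in 6 (32.7%) and the TATA letters TATAAA in 1 (12.4%). A match is a description of letters and no test of binding. The 4 promoters that hold an element of the TGACGT or TGACATCA kind are shown 5′ to 3′ with these letters, and TATAAA in Fos, in capitals.
Fos, chr12:85473640-85473889, plus strand: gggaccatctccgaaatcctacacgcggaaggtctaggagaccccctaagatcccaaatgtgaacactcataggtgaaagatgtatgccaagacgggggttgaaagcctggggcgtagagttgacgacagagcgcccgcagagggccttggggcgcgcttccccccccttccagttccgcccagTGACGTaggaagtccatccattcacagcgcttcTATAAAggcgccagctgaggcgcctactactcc
Jun, chr4:95052223-95052472, minus strand: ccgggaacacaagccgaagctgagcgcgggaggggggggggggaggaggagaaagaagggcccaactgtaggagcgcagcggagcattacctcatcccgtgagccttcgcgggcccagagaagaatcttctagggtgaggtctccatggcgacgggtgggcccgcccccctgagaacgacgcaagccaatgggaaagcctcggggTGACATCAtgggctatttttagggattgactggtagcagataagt
Klf6, chr13:5861239-5861488, plus strand: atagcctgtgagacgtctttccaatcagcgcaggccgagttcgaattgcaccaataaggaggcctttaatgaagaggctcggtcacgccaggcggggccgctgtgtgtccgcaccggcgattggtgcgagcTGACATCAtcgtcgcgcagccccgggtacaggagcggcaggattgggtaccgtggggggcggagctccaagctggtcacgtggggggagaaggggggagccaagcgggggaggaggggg
Btg2, chr1:134079156-134079405, minus strand: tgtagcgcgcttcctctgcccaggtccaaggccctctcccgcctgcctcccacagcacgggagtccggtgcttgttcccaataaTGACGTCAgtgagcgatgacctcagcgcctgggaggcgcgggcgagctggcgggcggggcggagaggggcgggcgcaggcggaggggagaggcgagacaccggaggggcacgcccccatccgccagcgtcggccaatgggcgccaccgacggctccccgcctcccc
The capitals begin 66 bases before the start in Fos, 45 in Jun, 119 in Klf6 and 166 in Btg2, and the TATAAA of Fos begins 33 bases before it.

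Summed over the 10 genes, the level was highest in OPCs, with an interval that overlapped that of NFOs after ONC, and higher in the injured library in every type. The sum went from 3239 CPM (95% interval 2975 to 3520) to 6131 (5692 to 6595) in OPCs, from 2103 (1821 to 2418) to 5795 (5546 to 6052) in NFOs and from 1810 (1769 to 1852) to 3522 (3445 to 3599) in oligodendrocytes. These levels pool the UMIs of all barcodes of a type, and every interval here is an exact one that covers counting error only, not the spread between nerves. For pooled levels and ratios it leaves out the spread between barcodes too. Among barcodes under 8000 UMIs the ratio of the injured to the uninjured sum was 1.03 (0.805 to 1.33) in NFOs, 1.13 (1.03 to 1.24) in oligodendrocytes and 1.66 (1.34 to 2.05) in OPCs.

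Fos, the partner of Jun proteins in AP-1, had 951 CPM (163 UMIs) in uninjured OPCs, 521 CPM (49 UMIs) in uninjured NFOs and 322 CPM (1335 UMIs) in uninjured oligodendrocytes. In the injured library it had 1573, 2032 and 919 CPM in the same order. By pooled UMIs, OPCs thus had the highest Fos level without injury and NFOs after ONC. The injured NFO level rested on 8 barcodes of at least 8000 UMIs, which held 644 of its 715 Fos UMIs, and the other 92 had 449 CPM. Per barcode OPCs were above NFOs after ONC too, with a mean NE (normalized expression, the natural log of 1 plus UMIs per 10000) of 2.00 against 0.91 and a Fos UMI in 76.5% against 33.0% of barcodes (41.2% and 19.0% when each barcode was thinned to 500 UMIs). The ratio of injured to uninjured was 1.65 (1.33 to 2.05) in OPCs, 3.90 (2.92 to 5.33) in NFOs and 2.86 (2.67 to 3.06) in oligodendrocytes.

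Fosb, a close relative of Fos, was mainly a gene of the early types. It had 105 CPM in uninjured OPCs (18 UMIs), 95.6 in uninjured NFOs (9 UMIs) and 15.2 in uninjured oligodendrocytes (63 UMIs). After ONC the levels were 400 CPM in OPCs (47 UMIs), 216 CPM in NFOs (76 UMIs) and 12.6 CPM in oligodendrocytes (29 UMIs). It was higher in injured OPCs (ratio 3.80, 2.17 to 6.96) and NFOs (2.26, 1.13 to 5.13), and the interval spanned 1 in oligodendrocytes (0.830, 0.515 to 1.31). Split by depth, the interval in NFOs spanned 1 as well. The NFO ratio was 1.20 (0.552 to 3.10) at 8000 UMIs or more and 1.78 (0.354 to 17.2) below, the latter from 8 and 2 UMIs.

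Jun, the founding Jun protein of AP-1, had 846, 552 and 255 CPM in uninjured OPCs, NFOs and oligodendrocytes. Its injured levels were 1378, 1575 and 602 CPM. All types were higher after ONC, with ratios of 1.63 (1.29 to 2.05), 2.85 (2.14 to 3.86) and 2.36 (2.18 to 2.56). Junb, a Jun relative that can oppose Jun, was likewise higher in each type, going from 339 to 621 CPM in OPCs, from 106 to 318 CPM in NFOs and from 100.3 to 240 CPM in oligodendrocytes. The ratios of Junb were 1.83 (1.28 to 2.63), 3.0 (1.57 to 6.42) and 2.39 (2.10 to 2.72).

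Jund, the Jun protein that many resting cells express, had another order of types than the other AP-1 genes. It had 537 CPM in uninjured OPCs, 436 in uninjured NFOs and 857 in uninjured oligodendrocytes, where 67.7% of barcodes held a UMI of it (64.4 to 70.8). The injured levels were 714, 799 and 1346 CPM. Oligodendrocytes thus held most Jund in both libraries. The pooled increase after ONC was smaller than that of Fos or Jun in NFOs (1.83, 1.32 to 2.61) and in oligodendrocytes (1.57, 1.5 to 1.65). In OPCs the interval spanned 1 (1.33, 0.978 to 1.81).

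Egr1, a zinc finger transcription factor, had 251 CPM in uninjured OPCs, 117 CPM in uninjured NFOs (11 UMIs) and 72.8 CPM in uninjured oligodendrocytes. After ONC it had 867, 415 and 108 CPM. OPCs held most Egr1 in both libraries, and its ratio was 3.46 (2.40 to 5.06) in OPCs, 3.55 (1.93 to 7.27) in NFOs and 1.49 (1.25 to 1.76) in oligodendrocytes. In oligodendrocytes 1 injured barcode held 90 of the 249 Egr1 UMIs, and the ratio without the leading barcode of each library was 1.06. Ier2, a small nuclear protein induced with Fos, went from 35.0 CPM (6 UMIs) to 298 CPM (35 UMIs) in OPCs, from 31.9 (3 UMIs) to 259 (91 UMIs) in NFOs and from 20.7 to 32.1 in oligodendrocytes. Its ratio in NFOs, 8.12, was the largest among the 8 genes with at least 50 summed UMIs there, and its interval of 2.69 to 40.1 the widest of those 8.

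Klf4, a zinc finger factor of the Krüppel-like family, had most of its UMIs in oligodendrocytes, the type with most UMIs of any gene, with 60.0 CPM (249 UMIs) in the uninjured and 92.9 CPM (214 UMIs) in the injured library. OPCs had 2 and 0 Klf4 UMIs, and NFOs 2 and 6, in the uninjured and injured library. For the 0 UMIs in injured OPCs the level of 3 UMIs is 25.5 CPM, and the exact interval reaches 31.4 CPM. Relative to oligodendrocytes its level was 0.195 (0.0234 to 0.710) in uninjured OPCs and 0.183 (0.0666 to 0.406) in injured NFOs, while the interval spanned 1 in uninjured NFOs (0.354, 0.0426 to 1.29). Klf6, of the same family, had 117, 223 and 81.2 CPM in uninjured OPCs, NFOs and oligodendrocytes and 255, 145 and 94.7 CPM after ONC. Its ratio in OPCs, 2.19 (1.20 to 4.06), rested on 1 barcode: 21 of the 30 injured Klf6 UMIs were in it, and the ratio without the leading barcode of each library was 0.820. The intervals of Klf6 spanned 1 in NFOs (0.650, 0.384 to 1.14) and oligodendrocytes (1.17, 0.979 to 1.39). Btg2, an antiproliferative factor and p53 target, went in oligodendrocytes from 26.8 to 74.3 CPM (2.78, 2.17 to 3.56). It had 8 and 3 UMIs in OPCs and 0 and 7 UMIs in NFOs, too few for a ratio.

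**Figure D1:**
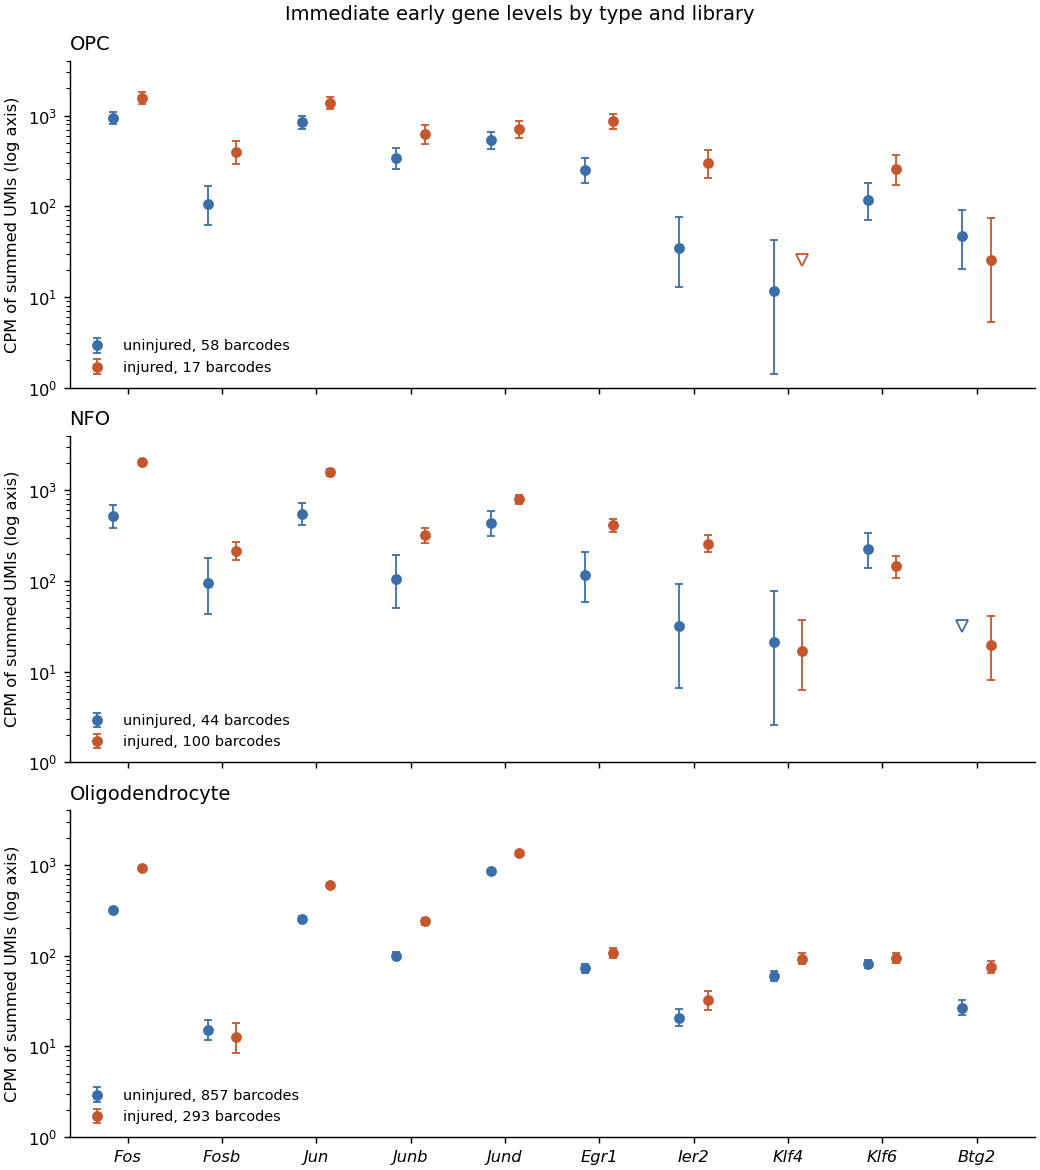
CPM of summed UMIs (log axis) of the 10 genes in OPCs, NFOs and oligodendrocytes, uninjured in blue and injured in orange, with exact 95% Poisson intervals. An open triangle marks a gene at 0 UMIs, drawn at the level of 3 UMIs. Injured values lie above uninjured ones for Fos, Jun and Junb in all 3 types. Outside oligodendrocytes the points of Klf4 are at or below 21.2 CPM, and its triangle in injured OPCs is at 25.5 CPM.

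Counted with a rule of 2-fold between the libraries and at least 50 summed UMIs, 3 of 7 genes tested were higher in injured OPCs (Fosb, Egr1 and Klf6), against 10.3% of the 993 genes tested. In NFOs 6 of 8 were higher (Fos, Fosb, Jun, Junb, Egr1 and Ier2), against 13.3% of 1695 genes. In oligodendrocytes 4 of 10 were higher (Fos, Jun, Junb and Btg2), against 5.98% of 8591 genes. None of the genes tested was 2-fold lower in a type, where 6.45%, 4.01% and 4.06% of all genes were. The median log2 ratio of the members tested was 0.87 in OPCs, 1.55 in NFOs and 0.64 in oligodendrocytes, and that of all genes tested 0.24, 0.20 and 0.05.

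Within each library, the pooled levels of Fos, Fosb, Jun and Junb were higher in OPCs than in oligodendrocytes. In the uninjured library 5 of 10 genes were 2-fold higher in OPCs (Fos, Fosb, Jun, Junb and Egr1, against 18.6% of all genes) and Klf4 was lower (19.9%). In the injured library 6 were higher (Fosb, Jun, Junb, Egr1, Ier2 and Klf6, against 18.4%), and Klf4 and Btg2 were lower (22.6%). For Klf6 the leading injured OPC barcode held 21 of the 30 UMIs. Without the leading barcode of each type, Klf6 was at 76.5 CPM in injured OPCs and 85.6 CPM in injured oligodendrocytes. The Btg2 ratio of 0.343 came from 3 OPC UMIs, and its interval (0.0701 to 1.02) spanned 1. The largest ratios were those of Fosb, 31.7 (19.6 to 52.3), Ier2, 9.26 (6.01 to 14.0), and Egr1, 8.02 (6.31 to 10.1), all in injured OPCs.

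NFOs compared with the same oligodendrocytes had 3 genes 2-fold higher without injury (Fosb, Jun and Klf6, against 17.7%) and 5 after ONC (Fos, Fosb, Jun, Egr1 and Ier2, against 13.5%). The leading uninjured NFO barcode of each gene held 15 of the 21 UMIs of Klf6, 29 of the 52 of Jun and 6 of the 9 of Fosb. Without the leading barcode of each type, Klf6 was at 63.7 CPM in uninjured NFOs and 77.8 CPM in uninjured oligodendrocytes. Jun was then at 244 and 241 CPM, and Fosb at 31.9 CPM, the level of 3 UMIs, and 13.7 CPM. Mean NE of Klf6 in these NFOs minus that in oligodendrocytes was -0.08. Klf4 and Btg2 were lower in both libraries (24.0% and 19.4%), although the uninjured values rest on 2 and 0 NFO UMIs and have intervals that span 1. Without injury Junb had a ratio of 1.06 (0.504 to 1.97) between NFOs and oligodendrocytes, and mean NE in NFOs minus that in oligodendrocytes was -0.09 for Fos and -0.08 for Jun, against their pooled ratios of 1.62 (1.19 to 2.15) and 2.17 (1.61 to 2.86). Fosb was 17.1-fold (11.0 to 27.3) higher in injured NFOs than in injured oligodendrocytes. The 8 injured NFO barcodes of at least 8000 UMIs held 68 of the 76 Fosb UMIs of that type. Below 8000 UMIs Fosb had 50.6 CPM (8 UMIs) in injured NFOs and 16.6 CPM (5 UMIs) in injured oligodendrocytes. Jund was lower in NFOs than in oligodendrocytes, at 0.509 (0.364 to 0.691) without injury and 0.594 (0.523 to 0.671) after ONC. The comparisons of OPCs and of NFOs share their oligodendrocyte barcodes.

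The UMIs of these genes were concentrated in few barcodes in both libraries. In the injured NFOs, the 5 barcodes with most UMIs of these genes (the leading 5%) held 68.1% of them, with 36.5% of all UMIs, and in the uninjured NFOs 2 barcodes held 52.5%, with 25.4% of all UMIs. The corresponding share was 46.5% in injured oligodendrocytes (15 barcodes, 23.0% of all UMIs) and 33.8% in uninjured oligodendrocytes (43 barcodes, 13.5% of all UMIs). Without the leading 5% in each library, 3 of the 5 genes with enough UMIs were 2-fold higher in NFOs (13.2% of all genes) and 1 of 9 in oligodendrocytes (5.57%), where Jun, Junb and Btg2 each had a ratio just under 2 (1.996, 1.996 and 1.99) and Fos one of 2.71. At the other end, 40.9% of uninjured and 33.0% of injured NFO barcodes held no UMI of any of the 10, and 22.4% and 23.9% of oligodendrocyte barcodes. The median barcode was higher in the injured library in each type: per 10000 UMIs it had 18.0 and 44.3 of these genes in uninjured and injured OPCs, 6.18 and 11.9 in NFOs and 9.80 and 17.2 in oligodendrocytes.

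Barcodes with at least 8000 UMIs held most UMIs of these genes in NFOs of both libraries. The injured NFOs had 8 of them, with 1821 of the 2039 UMIs of these genes, and the uninjured NFOs 2, with 104 of 198. Fos UMIs in the 8 injured barcodes ranged from 4 to 121 and Jun UMIs from 14 to 91. Fyn, a kinase gene typical of new oligodendrocytes, had 22 to 70 UMIs in these barcodes, the OPC gene Pdgfra had 0 UMIs in 7 of the 8, and 2 to 4 macrophage marker UMIs were present in each. Gpr17, which is on the OPC marker list too and is known from committed precursors, had 2 to 46 UMIs in them, and the NFO genes Bcas1 and Enpp6 had 44 to 110 and 3 to 77.

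**Figure D2:**
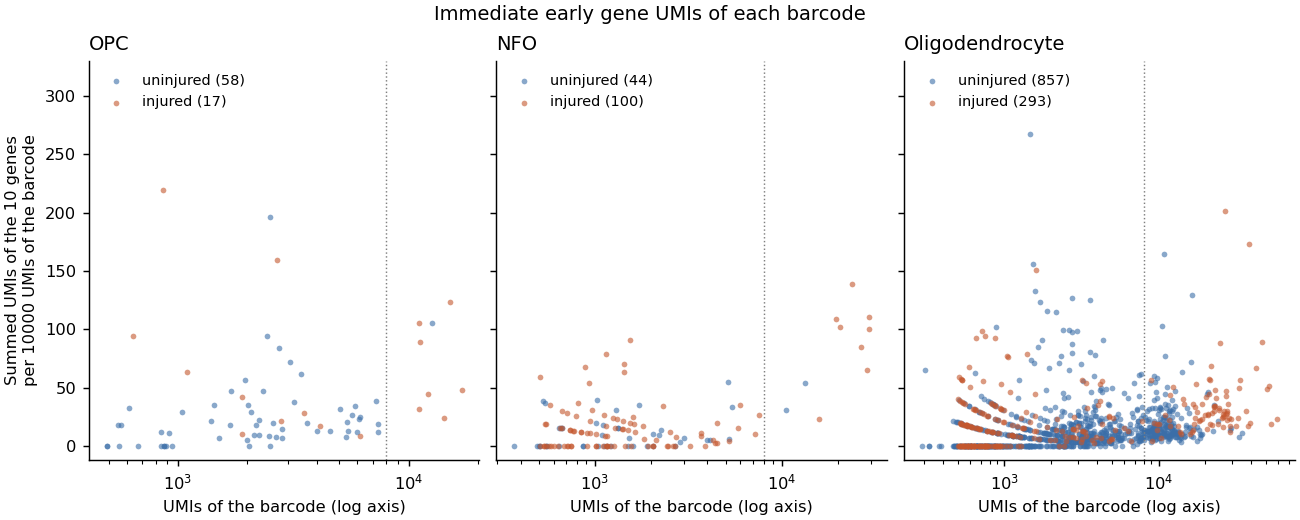
Summed UMIs of the 10 genes per 10000 UMIs of each barcode (vertical) against the UMIs of the barcode (log axis), by type, uninjured in blue and injured in orange, with a dotted line at 8000 UMIs. To the right of the line 7 of the 8 injured NFO barcodes lie above 65 per 10000, and among oligodendrocytes the injured barcodes reach 202.

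Below 8000 UMIs the pooled ratios of Fos and Jun in NFOs and oligodendrocytes were close to 1. In NFOs (92 injured and 42 uninjured barcodes, median 1157 and 1185.5 UMIs) Fos had a ratio of 1.09 (0.696 to 1.74) and Jun 1.20 (0.676 to 2.23), and 0 of 3 genes with enough UMIs were 2-fold higher, against 12.3% of all genes. In oligodendrocytes (209 and 654 barcodes, median 825 and 2232 UMIs) the ratio was 1.07 (0.848 to 1.35) for Fos and 1.02 (0.788 to 1.31) for Jun. There Btg2 alone was 2-fold higher (2.02, 1.07 to 3.64), 1 of 8 genes tested, against 4.46% of all genes. Junb had a ratio of 1.41 (1.0 to 1.95).

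At 8000 UMIs or more, Fos in oligodendrocytes had a ratio of 2.87 (2.65 to 3.12), Jun 2.49 (2.27 to 2.74), Junb 2.71 (2.31 to 3.18) and Btg2 2.86 (2.13 to 3.88), over 84 injured and 203 uninjured barcodes. The share of all genes 2-fold higher there was 7.78%. Depth was not matched within this set, since the injured barcodes had a median of 22473 UMIs and the uninjured ones 11054. Between 8000 and 15000 UMIs (17 injured and 175 uninjured barcodes) Fos had a ratio of 1.80 (1.47 to 2.18) and Jun 1.68 (1.31 to 2.13), while the interval spanned 1 for Junb (1.13), Jund (1.06) and Btg2 (0.973). From 15000 UMIs on (67 and 28 barcodes) the ratios were 2.82 for Fos, 2.12 for Jun, 2.01 for Junb and 6.60 for Btg2, the last with only 7 uninjured UMIs.

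**Figure D3:**
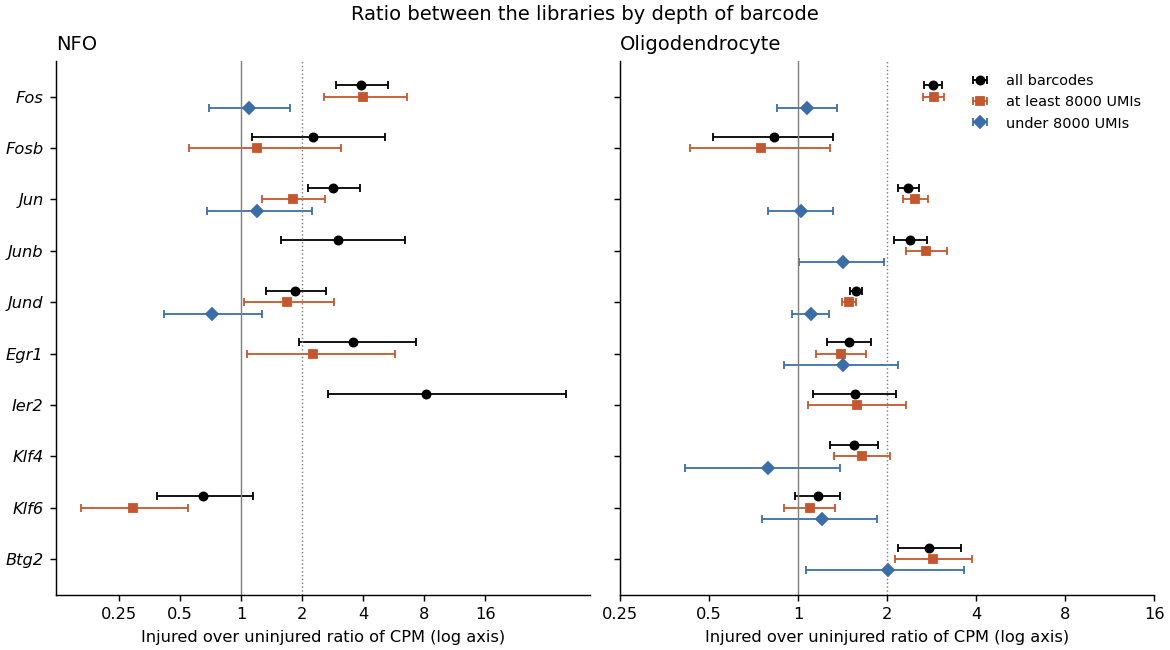
Injured over uninjured ratio of CPM (log axis) of each gene with exact conditional 95% intervals, for all barcodes (black), those with at least 8000 UMIs (orange) and those under 8000 (blue), drawn where at least 50 UMIs were summed and the uninjured count was above 0. Solid and dotted lines mark ratios of 1 and 2. For Fos and Jun in oligodendrocytes the blue points lie at 1.07 and 1.02 and the orange ones at 2.87 and 2.49.

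Among OPCs the pattern with depth was different. Below 8000 UMIs (10 injured and 57 uninjured barcodes) Fos had a ratio of 0.960 (0.529 to 1.63), while Fosb had 7.21 (3.66 to 14.4) and Egr1 5.92 (3.19 to 11.0), both from fewer than 50 summed UMIs. At 8000 UMIs or more there were 7 injured barcodes and 1 uninjured one, which alone held 134 of the 555 uninjured UMIs of the 10 genes and 60 of the 163 of Fos. Against that 1 barcode the ratio of Fos was 0.388 and that of Egr1 0.573. The OPC ratios thus turned on very few barcodes.

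In bands of depth, the summed level of the 10 genes in oligodendrocytes was 848 CPM (684 to 1039) without injury and 1609 (1360 to 1891) after ONC below 1000 UMIs. From 1000 to under 3000 UMIs it was 1746 (1632 to 1865) and 1796 (1514 to 2115), intervals that overlap. From 3000 to under 8000 UMIs it was 1588 (1514 to 1664) and 1927 (1696 to 2181), and from 8000 on 1967 (1912 to 2023) and 3781 (3697 to 3868). Macrophage markers in the injured barcodes fell over the same bands, from 4598 to 1507, 660 and 139 CPM. In injured oligodendrocytes the level of the 10 genes was highest in the deepest band, where macrophage markers were lowest. Injured NFOs had the same order at the top, with 9404 CPM of the 10 genes and 119 CPM of the markers. Injured OPCs did not: their highest level, 16633 CPM, was in the band with most macrophage markers (1331 CPM, 2 barcodes). Whether depth or macrophage RNA lies behind these orders was not tested. In NFO barcodes from 1000 to under 8000 UMIs the injured level did not exceed the uninjured one in both bands: it was 1412 against 914 CPM and then 1238 against 2048.

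**Figure D4:**
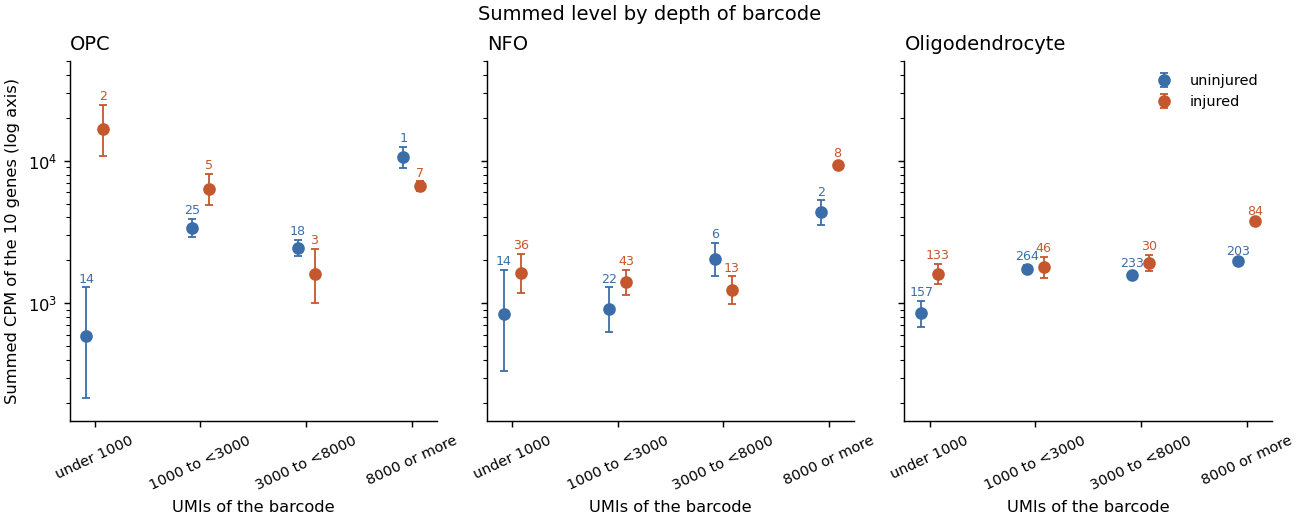
Summed CPM of the 10 genes (log axis) by depth of barcode in each type, uninjured in blue and injured in orange, with exact 95% Poisson intervals and the number of barcodes beside each point. In oligodendrocytes the points lie at 1746 and 1796 CPM from 1000 to under 3000 UMIs and at 1967 and 3781 from 8000 UMIs on.

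Macrophages also express these genes, so barcodes with few macrophage UMIs were read alone. Among barcodes with under 5 macrophage marker UMIs per 10000, 7 of 8 genes were 2-fold higher in injured NFOs (26 injured and 44 uninjured barcodes) against 14.0% of all genes, and 4 of 10 in injured oligodendrocytes (118 and 834), against 6.06%. Fos had a ratio of 5.45 in these NFOs and 3.11 in these oligodendrocytes. Taking only barcodes with no such UMI left 13 injured NFO and 2 injured OPC barcodes and 0 genes 2-fold higher in either type, and 38 injured oligodendrocyte barcodes with 6 of 10 genes higher. The share of all genes in this second set is not given here, so its counts describe the 10 genes alone. Both choices also select on depth. The set under 5 per 10000 kept all 8 injured NFO barcodes of at least 8000 UMIs and 81 of the 84 such oligodendrocyte barcodes, with median depths of 2542 and 17414 UMIs. The set with no such UMI kept 0 of the 8 and 9 of the 84, with median depths of 1429 and 1356 UMIs.

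A low share of nuclear RNA went with a low level. Malat1, a nuclear RNA, was under 0.5% of UMIs in 77.0% of injured and 63.6% of uninjured NFO barcodes and in 45.4% and 5.60% of oligodendrocyte barcodes. The summed level of the 10 genes in injured NFOs was 1256 CPM (1066 to 1470) in the 77 barcodes under 0.5% and 8248 CPM (7880 to 8629) in the 23 others, whose median depths were 1137 and 3214 UMIs. Injured oligodendrocytes had 1358 CPM (1164 to 1575) in 133 barcodes and 3649 CPM (3569 to 3730) in 160, with median depths of 774 and 9804 UMIs. The part of depth, nuclear RNA and macrophage RNA in the differences between libraries was not tested beyond these splits.

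The share of barcodes with a UMI depends on depth, and no type here is known to lack Fos, Jun or Jund, so no background share could be read for them. Unthinned, a Fos UMI was present in 24.0% of the uninjured oligodendrocyte barcodes and 40.6% of the injured ones, and in 18.2% and 33.0% of NFO barcodes. After each barcode was thinned to 500 UMIs, Fos was found in 8.83% (7.0 to 11.0) and 16.0% (12.0 to 20.8) of oligodendrocytes, and Jun in 8.47% (6.68 to 10.6) and 14.3% (10.5 to 18.9). The intervals of Fos do not overlap, and those of Jun overlap slightly. Jund was at 28.9% (25.8 to 32.1) and 28.0% (22.9 to 33.5) in the same barcodes, intervals that overlap. Thinning left out 19 uninjured oligodendrocyte barcodes and none of the injured ones.

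At least 2 of the 10 genes were found in 13.4% (11.1 to 15.9) of uninjured and 19.5% (15.1 to 24.5) of injured oligodendrocyte barcodes at 500 UMIs. For NFOs these shares were 7.14% (1.5 to 19.5) and 23.0% (15.2 to 32.5), and for OPCs 21.4% (11.6 to 34.4) and 58.8% (32.9 to 81.6). At 500 UMIs the intervals of the libraries overlap in all 3 types. At 1000 UMIs those of oligodendrocytes do not, with 24.4% (21.3 to 27.8) of 700 uninjured and 41.9% (34.1 to 49.9) of 160 injured barcodes. Without Jund, the shares in oligodendrocytes were 6.56% and 10.9% at 500 UMIs and 14.4% and 24.4% at 1000.

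Over barcodes, several of the genes went up and down together. In uninjured oligodendrocytes the highest Pearson r of NE among the 45 pairs was that of Fos with Egr1 (0.58, 857 barcodes), followed by Fos with Junb (0.54) and Fos with Jun (0.44). Klf6 stood apart, with a median r of 0.035 with the other genes. In injured oligodendrocytes Klf4 with Btg2 (0.45) and Fos with Klf4 (0.44) led over 293 barcodes, and in injured NFOs Fos with Egr1 (0.53) and Fos with Jund (0.50) over 100. The median over pairs was 0.22, 0.21 and 0.25 in the 3 sets. All barcodes of a set come from 1 library, and depth is shared by both genes of a pair: NE of Jund had r = 0.53 with log10 UMIs in uninjured oligodendrocytes and NE of Fos 0.18. Limiting the set to barcodes of at least 3000 UMIs left the median at 0.26 in uninjured (436 barcodes) and 0.28 in injured oligodendrocytes (114).

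**Figure D5:**
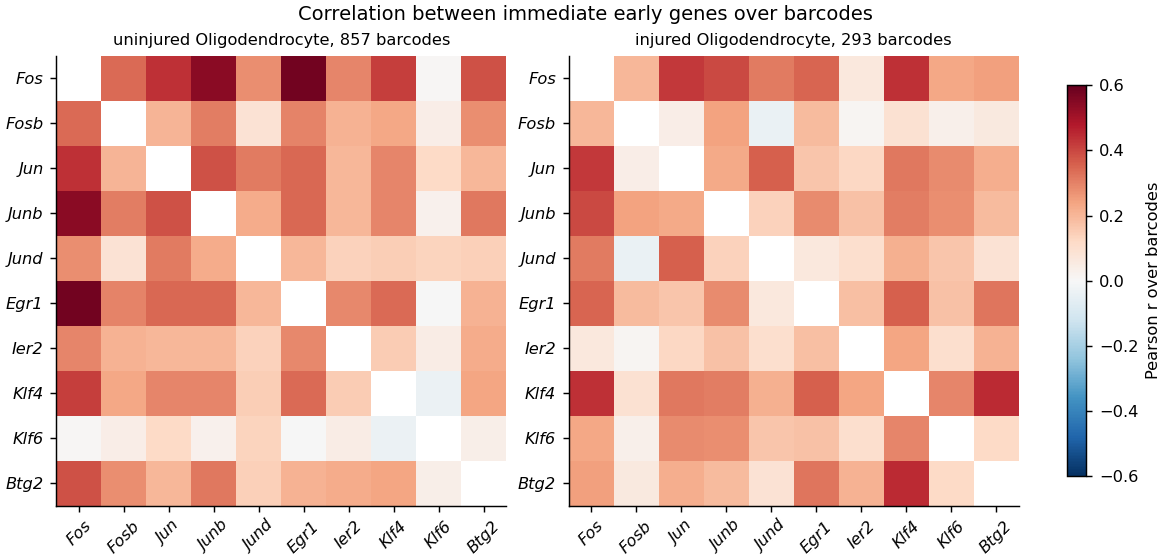
Pearson r of NE over barcodes for each pair of the 10 genes in uninjured (857 barcodes, left) and injured (293 barcodes, right) oligodendrocytes, red above and blue below 0. Fos forms the reddest row on the left, with 0.58 for Egr1, and the Klf6 row is near white there.

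Single genes outside the 10 were searched for a like pattern among the 678 found in at least 10% of 838 uninjured oligodendrocyte barcodes thinned to 500 UMIs, a limit that rarer genes do not pass. The highest r of these candidates with the summed level was 0.18, for Ubb, and then 0.18 for Ermn and 0.17 for Gapdh. The same genes had 0.07, 0.12 and 0.01 in injured oligodendrocytes. Correlations this weak in sparse counts give no like gene among the candidates.

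Other early response genes came from a list of 31. In injured oligodendrocytes 12 of the 19 with enough UMIs were 2-fold higher and 0 lower, with a median log2 ratio of 1.37, where 5.98% of all genes tested were higher and 4.06% lower. Atf3, a stress-induced factor that pairs with AP-1 proteins, went from 1.20 CPM (5 UMIs) to 112 CPM (258 UMIs), a ratio of 93.0 (39.3 to 289). Gadd45g and Gadd45b, growth arrest genes, had ratios of 17.4 (12.5 to 24.8) and 12.1 (9.25 to 16.0), and Cebpb, a C/EBP transcription factor, 13.4 (8.64 to 21.7). Of these genes 3 of 6 tested were higher in injured NFOs (Sgk1, Gadd45g and Socs3, against 13.3% of all genes) and 1 of 3 in injured OPCs (Socs3, against 10.3%). Over unthinned barcodes the summed level of this list had r = 0.29 with that of the 10 genes in uninjured and 0.36 in injured oligodendrocytes, and 0.58 in uninjured OPCs (58 barcodes), where depth is shared by both sums.

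Genes that switch the response off or on had pooled ratios under 2 in oligodendrocytes where tested. Of the feedback genes (9 listed), 0 of the 4 tested there were 2-fold higher, against 5.98% of all genes. All 4 had a ratio above 1, and the median log2 ratio was 0.83, against 0.05 for all genes. Dusp1, a phosphatase that inactivates MAP kinases, had a ratio of 1.89 (1.42 to 2.52) and Zfp36, which destabilises mRNA, 1.76 (1.37 to 2.26), intervals that lie above 1 and reach past 2. In NFOs 0 of the 9 had enough UMIs, and in OPCs 2 had. Of the upstream factors and kinases (14 listed), 0 of 11 tested were 2-fold higher or lower in oligodendrocytes, against 5.98% and 4.06% of all genes, and the median log2 ratio was 0.13. Mapk3 had a ratio of 0.837 (0.762 to 0.918) and Map2k2 1.20 (1.06 to 1.37).

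Dissociation induces immediate early genes together with heat shock genes, and both libraries were dissociated. Of 16 other genes linked to dissociation, 2 of the 15 tested were 2-fold higher in injured oligodendrocytes, the metallothioneins Mt1 (5.03, 4.66 to 5.44) and Mt2 (4.32, 3.06 to 6.18), against 5.98% of all genes. None was 2-fold lower (4.06% of all genes), and the median log2 ratio was 0.10, against 0.05 for all genes. Of these 15, 8 had a ratio above 1, and the list summed to 6846 CPM in the uninjured and 7848 CPM in the injured library. The inducible heat shock genes Hspa1a (0.550, 0.414 to 0.723) and Dnajb1 (0.640, 0.461 to 0.875) were lower after ONC and were picked after their values were seen, and the abundant chaperone genes Hsp90ab1 and Hsp90aa1 had ratios of 0.893 (0.860 to 0.928) and 0.807 (0.773 to 0.843). In NFOs 1 of 10 was 2-fold higher (Mt1, 3.21, against 13.3% of all genes), with 7 above 1 and a median log2 ratio of 0.37. In OPCs 1 of 9 was (Dnaja1, against 10.3%), with 8 above 1 and a median log2 ratio of 0.61. The median of all genes tested was itself above 0, at 0.20 in NFOs and 0.24 in OPCs. Over uninjured oligodendrocyte barcodes the summed level of the 10 genes had r = 0.35 with the summed level of this list, and over injured ones 0.059. These libraries hold no sample that was not dissociated, so expression in the nerve and expression induced by dissociation cannot be told apart.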

How the data were processed

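Both libraries were made with the 10x Genomics Chromium system and hold 1 sample each. Per the submitters' processing notes, bcl2fastq 2.17.1.14, Cell Ranger 1.3 and Seurat 4.0.3 were used, with the mm10 build. The authors kept cells with at least 200 genes, at most 20% mitochondrial UMIs and at most 150000 UMIs, drew equal numbers of cells from each library, typed them, and deposited the lineage types with, for each barcode, NE, the natural log of 1 plus UMIs per 10000. A table of both libraries together was not used. No doublets were called here. The UMIs of a barcode are its unlogged values over the smallest one, and were whole within 0.001 in 100% of barcodes. The libraries hold 4414834 (uninjured) and 2771797 (injured) UMIs, and 30438 of 31053 gene names matched GENCODE M21.

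Summed UMIs per type and library gave CPM with exact Poisson intervals, ratios with exact conditional intervals and shares with exact binomial intervals, all of 95%. There is no p-value, since barcodes of 1 library are not replicates. Ratios were read with at least 50 summed UMIs. Where a class held 0 UMIs, 3 UMIs were taken as its limit. The ratio step was tested on simulated data. Named are the 10 members and, from 4 gene lists, the genes with most UMIs or the largest ratios. Hspa1a and Dnajb1 fall outside this rule and were named after their values were seen. The genes most alike were sought by Pearson r in thinned uninjured oligodendrocyte barcodes. The members and lists were chosen with earlier results of these data known. The tools were pandas 2.3.3, scipy 1.17.1 and numpy 2.4.6 in Python 3.11.15.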

Additional observations from a re-analysis of the deposited data

How the results depend on the processing

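No paired analysis was possible because each condition has 1 library. Alternatives set at the outset were a stricter filter (at least 500 genes, at most 10% mitochondrial UMIs), mean CPM over barcodes, Malat1 of at least 0.5%, barcodes under 8000 UMIs, thinning to 500 UMIs, other scalings, leaving out each gene's leading barcode (most UMIs of it) per library, and other limits. The sets with at least 8000 UMIs, without the leading 5% of barcodes and with no or few macrophage marker UMIs, and the split at 15000 UMIs, were chosen after seeing the data. The limit of 5 macrophage UMIs per 10000 was added after the set with none had been read. Of 336 recomputed injured over uninjured ratios, 226 lay inside the interval of the reported value, 99 moved outside it and 11 of called values crossed 1. Of 120 recomputed ratios between types, 94 stayed inside and 0 crossed 1. These did not cover leaving out the leading barcode, which reversed Klf6. It then had 63.7 CPM in uninjured NFOs against 77.8 in uninjured oligodendrocytes, and 76.5 in injured OPCs against 85.6 in injured oligodendrocytes. Jun then had 244 CPM in uninjured NFOs against 241 in uninjured oligodendrocytes, and was no longer 2-fold higher.

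The 11 ratios that crossed 1 were these. In OPCs, Klf6 was 0.820 without the barcode with most UMIs, 0.931 at 8000 UMIs or more and 0.934 without the leading 5%, Egr1 was 0.573 at 8000 UMIs or more, and Fosb, Egr1 and Klf6 were 0 in the 2 injured barcodes with no macrophage UMI. In NFOs, Junb was 0.666 under 8000 UMIs, and with no macrophage UMI Fosb was 0, Jun 0.995 and Junb 0.647.

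The count of genes 2-fold higher in OPCs (3) became 0 under 8000 UMIs, when thinned, at 8000 UMIs or more, with no macrophage UMI and with at least 200 UMIs, 1 without the barcode with most UMIs and 6 at 1.5-fold. Genes 2-fold lower (0) became 2 at 8000 UMIs or more and 3 with no macrophage UMI. In NFOs, 6 higher became 3 by mean CPM and without the leading 5%, 0 under 8000 UMIs, when thinned and with no macrophage UMI, and 2 with at least 200 UMIs, while 0 lower became 1 under the stricter filter, at 8000 UMIs or more and at 1.5-fold. Thinning left no member with 50 UMIs in NFOs. In oligodendrocytes, 4 higher became 1 by mean CPM, under 8000 UMIs and without the leading 5%, 0 when thinned and 7 at 1.5-fold. Between NFOs and oligodendrocytes without injury, 3 higher became 5 under the stricter filter and with Malat1 of at least 0.5%, 1 by mean CPM and 6 at 1.5-fold, and 2 lower became 1 with at least 200 UMIs. After ONC, 5 higher became 2 by mean CPM and 3 with at least 200 UMIs, and 2 lower became 1 with the latter. For OPCs, 1 lower became 2 at 1.5-fold without injury and 2 lower became 1 with at least 200 UMIs after ONC. Apart from fewer UMIs when thinned and fewer genes at the higher limit, the cause was not tested. For most of these alternatives the share of all genes is not given here, so these counts describe the immediate early genes alone.

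Barcodes with at least 2 of the genes, thinned to 1000 in place of 500 UMIs, were 50% and 80.0% in uninjured and injured OPCs, 23.3% and 32.8% in uninjured and injured NFOs and 24.4% and 41.9% in oligodendrocytes, where the intervals then no longer overlapped. Without Jund the oligodendrocyte shares were 6.56% and 10.9% at 500 UMIs. Depth limits most the genes of few UMIs (Ier2, Klf4 and Btg2 in OPCs and NFOs).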
